A study of Mus musculus with 32 samples.

Results

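The neurotrophins and their receptors form a family of 6 genes, *Bdnf*, *Ntf3*, *Ntrk2*, *Ntrk3*, *Ngfr*, and *Sort1*, chosen by name from the 49671 genes in the deposited count table. They were followed in primary cortical neurons from wild-type C57BL/6 mice, prepared from forebrains at embryonic day 17 to 18. RNA was sequenced in 32 libraries, with 4 biological replicates in each of 8 groups. One group per time point was left untreated, and in the others the medium held, for either 6 h or 5 d, 1 oligoribonucleotide at 10 µg/mL, which was miR-92a-1-5p, the miRNA miR-124-5p, or a mutated control named Mut.oligo. These are synthetic single-stranded RNAs added from outside the cell, and Mut.oligo stands for an RNA of the same kind with another sequence. The question for this family was whether its transcripts changed with any of the oligoribonucleotides, and whether such a change depended on the sequence or on the time of exposure.

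Neurotrophins are secreted growth factors that are made as longer precursors and cut by proteases. Mature BDNF binds the receptor tyrosine kinase TrkB and mature NT-3 binds TrkC, and both receptors support the survival, branching, and synapses of cortical neurons. The uncut precursors bind the p75 receptor together with sortilin, a pairing known for promoting neuronal death, and *Bdnf* transcription is known to follow neuronal activity through the cAMP response element binding protein.

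Of the added RNAs, miR-92a-1-5p has an entry among the RefSeq mature miRNAs, and its sequence is printed because its seed sets which transcripts it could pair with. It lies at chr14:115044437-115044459 on the plus strand of GRCm38.p6, and capitals mark the seed at positions 2 to 8, counted from the 5′ end.
miR-92a-1-5p: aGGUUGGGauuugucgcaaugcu
The complement of this seed, CCCAACC, was sought in the longest annotated 3′ untranslated region of each gene (GENCODE M21, median length 1074 bases), and 9.95% of 20653 genes held it. It was absent from those of *Bdnf*, *Ntf3*, and *Ntrk2*, which are 2855, 314, and 5617 bases long. It occurred 3 times in the 16600 bases of *Ntrk3*, 1 time in the 1985 bases of *Ngfr*, and 1 time in the 4268 bases of *Sort1*. These 5 sites are shown with their neighbouring bases so that each gene's value after miR-92a-1-5p can be read beside them. The sites lie on the minus strand at chr7:78189949-78189977, chr7:78184111-78184139, and chr7:78176553-78176581 for *Ntrk3* and at chr11:95570076-95570104 for *Ngfr*. The site of *Sort1* lies on the plus strand at chr3:108357819-108357847. Capitals mark the seed complement, and a match of letters is a description and not a binding site.
*Ntrk3*, first: tgcagaatgggCCCAACCttcttactctc
*Ntrk3*, second: gagatttttgaCCCAACCatggatatata
*Ntrk3*, last: ctcccttcctcCCCAACCacagaagaaaa
*Ngfr*: ccaggcccctaCCCAACCcttgtgcagat
*Sort1*: cccacctcaccCCCAACCactactgtagg

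The windows of 250 bases before the RefSeq transcript starts were searched on both strands for 3 motifs of activity-dependent transcription. Among 32851 such windows in the genome, 1.55% held TGACGTCA, 0.35% held TCACGTCA or its reverse complement, and 6.02% held CACGTG, and none of these motifs contains another. *Bdnf* had 7 windows, of which 1 held a motif, 38 bases before its start at chr2:109692186-109692435 on the plus strand of GRCm38.p6. This window is printed because *Bdnf* levels at 6 h followed those of the activity-regulated genes *Vgf*, *Npas4*, and *Fos*, as described further on. Capitals mark TCACGTCA.
*Bdnf* window: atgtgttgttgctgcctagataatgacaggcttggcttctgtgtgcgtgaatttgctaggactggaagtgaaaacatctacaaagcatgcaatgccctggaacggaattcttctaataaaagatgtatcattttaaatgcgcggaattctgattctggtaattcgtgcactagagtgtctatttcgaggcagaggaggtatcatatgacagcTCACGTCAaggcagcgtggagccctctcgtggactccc
*Ntf3* had 2 windows, of which 1 held CACGTG, and the single windows of *Ntrk2* and *Ngfr* held none of the motifs. The counts do not separate the transcript starts of a gene, so that no start could be followed on its own.

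The libraries held 24514090 to 73626029 counts, and 3 counts corresponded to 0.0407 to 0.122 CPM (counts scaled to a fixed library total). That floor reflects counting error alone. Levels are given as CPM scaled between libraries by trimmed means (TMM). Each library's label names an experiment batch, 7 at 6 h and 6 at 5 d. At 6 h, 4 miR-92a-1-5p, 2 miR-124-5p, and 2 Mut.oligo libraries shared a batch with an untreated library, and at 5 d 2, 2, and 3 did. Libraries of the same batch deviated together, with a median correlation over genes of 0.30 at 6 h and 0.25 at 5 d, and values within batches are therefore given beside the pooled ones. One library stood apart, miR-124-5p replicate 1 at 5 d, which had the largest deviation from its time point (root mean square 0.453 on the log2 scale, with 32 libraries compared). Mut.oligo replicate 4 at 6 h came next with 0.430, and the others had 0.255 to 0.374. The values that changed most without either library are given beside the results. The marker genes of neurons summed to between 3560.3 and 5367 CPM, those of astrocytes to between 319 and 2548 CPM, and those of microglia to between 2.72 and 9.87 CPM, with every marker of the 3 lists detected in at least 1 library of each group. In bulk samples, fewer cells of a type and less RNA per cell cannot be told apart.

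All 6 genes were detected in every library, with *Ntrk2* and *Sort1* the most abundant per length and *Bdnf* and *Ngfr* the least. The length of a gene was that of all its annotated exons merged (GENCODE M21), while the study names an earlier release for its mapping. The order between genes depends on these lengths. Divided by exonic length, as TPM (transcripts scaled to a fixed total), the mean over the 16 libraries of 6 h was 115 ± 3.96 for *Sort1*, 104 ± 8.36 for *Ntrk2*, 35.2 ± 5.72 for *Ntrk3*, 31.1 ± 5.86 for *Ntf3*, 7.37 ± 3.796 for *Bdnf*, and 6.56 ± 0.908 for *Ngfr* (SD, n = 16). The ranges of *Sort1* and *Ntrk2* overlapped, as did those of *Ntrk3* and *Ntf3* and those of *Bdnf* and *Ngfr*, so that these neighbours did not differ beyond their spread. At 5 d the order in TPM was *Ntrk2* at 186 ± 25.3, *Sort1* at 128 ± 12.1, *Ntrk3* at 40.6 ± 10.1, *Ntf3* at 20.5 ± 7.64, *Bdnf* at 6.34 ± 1.02, and *Ngfr* at 2.94 ± 0.511 (SD, n = 16). Only the ranges of *Ntrk3* and *Ntf3* overlapped then, although *Ntrk3* was the higher one in 16 of 16 libraries. *Ntf5*, which encodes the other TrkB ligand, was at a count of 0 in at least 1 library of each time point.

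**Figure D1:**
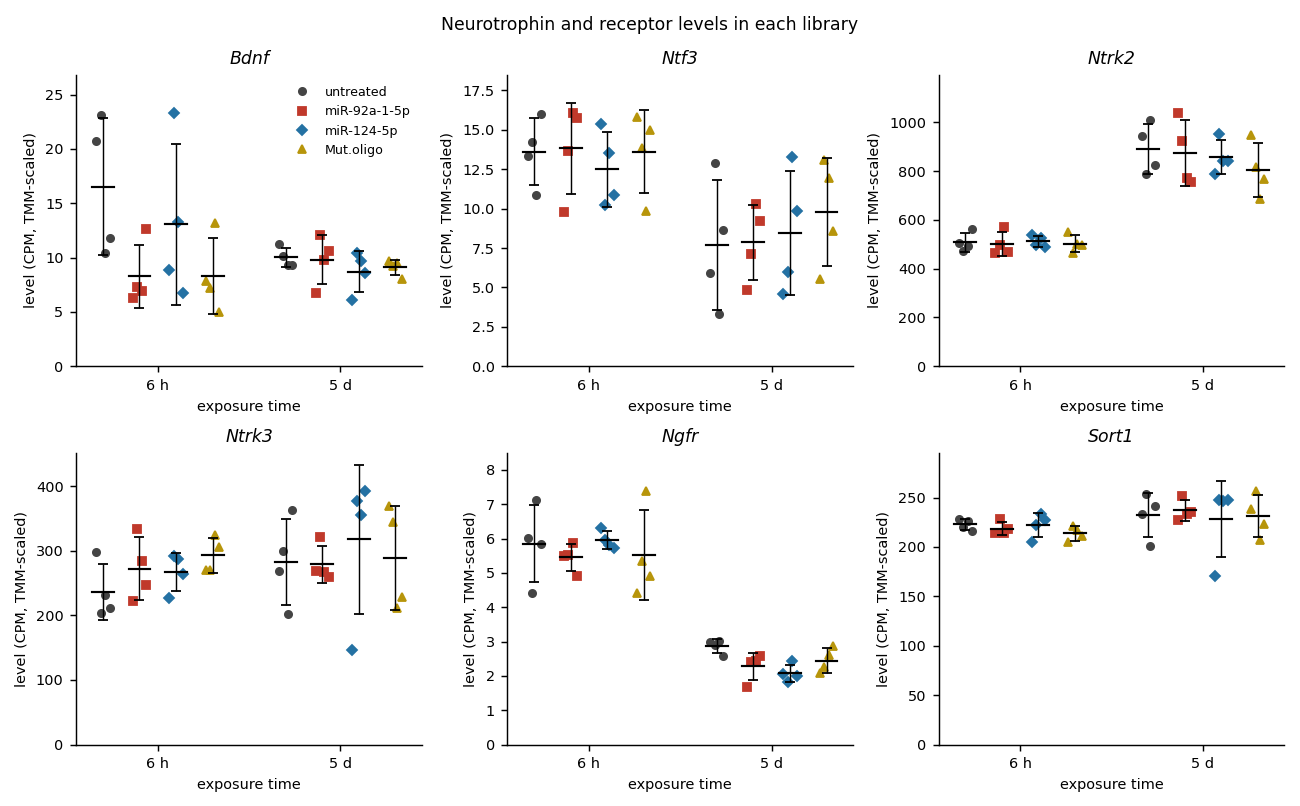
Level of each gene in CPM (TMM-scaled, linear axes from 0) in untreated neurons and after each oligoribonucleotide at 6 h and 5 d. Points are the 4 libraries of a group, and black lines and bars the mean ± SD. *Ntrk2* lies higher and *Ngfr* lower at 5 d in all 4 conditions, and the untreated *Bdnf* libraries at 6 h range from 10.4 to 23.1 CPM.

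After 6 h, *Bdnf* (ENSMUSG00000048482, chr2:109674700-109727007, plus strand) was the member with the largest differences. Untreated neurons had 20.8, 23.1, 10.4, and 11.8 CPM in replicates 1 to 4, from 340 to 727 counts per library. Neurons exposed to miR-92a-1-5p had 6.32, 7.31, 6.93, and 12.6 CPM. The former group had 2 high and 2 low libraries, and the only miR-92a-1-5p library inside its range was replicate 4. With miR-124-5p, *Bdnf* was at 8.88, 23.3, 13.2, and 6.74 CPM. With Mut.oligo, it was at 7.82, 7.19, 13.2, and 5.02 CPM. The miR-124-5p libraries spread over the whole untreated range and beyond both of its ends, and 3 of the 4 Mut.oligo libraries lay below every untreated library.

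The mean level of *Bdnf* was 16.5 ± 6.32 CPM without treatment, 8.29 ± 2.90 with miR-92a-1-5p, 13.1 ± 7.38 in the miR-124-5p libraries, and 8.32 ± 3.49 in those of Mut.oligo (SD, n = 4 each). On the log2 scale, the fold change was -0.98 (SE 0.369) for miR-92a-1-5p and -0.97 (SE 0.377) for Mut.oligo, with unadjusted p of 0.0168 and 0.0203 from edgeR's quasi-likelihood test. It was -0.33 (SE 0.367) for miR-124-5p, which lies within the spread between replicates. Without Mut.oligo replicate 4, which had the lowest level, the value for Mut.oligo was -0.79 (SE 0.400), with an unadjusted p of 0.0658 in edgeR's quasi-likelihood test. After Benjamini-Hochberg adjustment over 18755 genes, edgeR's p was 0.999 for miR-92a-1-5p, 1.00 for miR-124-5p, and 0.457 for Mut.oligo, so that *Bdnf* was not called. Here a called gene is one whose adjusted p is under 0.05 and whose log2 fold change is over 0.5 in either direction. In this fit 0 of the 6 members were called at 6 h for any of the oligoribonucleotides, against 0% of all genes tested in each of the 3 comparisons. This share belongs to the edgeR fit used here. The study, which used DESeq2, reports deregulated genes at 6 h for both miRNAs and none for Mut.oligo. At an unadjusted p under 0.05, 1 member passed for miR-92a-1-5p (4.75% of all genes), 0 for miR-124-5p (4.54%), and 2 for Mut.oligo (9.49%), the second being *Ntrk3*. The 3 comparisons share the same 4 untreated libraries.

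The spread of *Bdnf* at 6 h was partly shared by libraries of an experiment batch. Within the 4 batches that held both kinds of library, *Bdnf* was lower after miR-92a-1-5p in 4 of 4, by -1.51, -0.88, -0.77, and -0.72 on the log2 scale. It was lower in both batches shared with miR-124-5p, by -0.63 and -0.42, and in both shared with Mut.oligo, by -0.65 and -0.60. Once the experiment batch entered the fit as covariate, the log2 fold change for miR-92a-1-5p was again -0.98, with an SE of 0.198 in place of 0.369, and the adjusted p in edgeR's quasi-likelihood test (Benjamini-Hochberg) was 0.0294. *Bdnf* was thereby the 1 called member of 6, against 0.208% of all genes tested. For Mut.oligo the log2 fold change was then -0.90 (SE 0.249, adjusted p = 0.273), and for miR-124-5p -0.21 (SE 0.254, adjusted p = 0.940), in edgeR's test with the same adjustment. Neither passed, with 0 members called against 0.0213% and 0% of all genes.

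This call of *Bdnf* was not kept by most fits with fewer libraries, nor by the other tool. Among the 8 fits with the batch covariate that each left out 1 untreated or miR-92a-1-5p library, it was kept in 1, the fit without miR-92a-1-5p replicate 1. The log2 fold change ranged from -1.10 to -0.75 and edgeR's adjusted p (Benjamini-Hochberg) from 0.0153 to 0.179 over these 8 fits, and DESeq2 with the covariate gave an adjusted p of 0.101.

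The genes known to respond to BDNF and to neuronal activity held lower values beside *Bdnf* at 6 h. Of a list of 14 such genes, 0 were called without a covariate for any oligoribonucleotide, and the log2 fold change was negative for 11 with miR-92a-1-5p, for 13 in the miR-124-5p comparison, and for 11 with Mut.oligo, beside 48.1%, 51.3%, and 50.1% of all genes. The medians of the list were -0.22, -0.12, and -0.21, beside medians of 0.0055, -0.0033, and -0.00036 over all genes tested. With the batch covariate, *Fos*, *Npas4*, and *Vgf* fell after miR-92a-1-5p (3 of 14 called, 0 up, beside 0.208% of all genes), *Npas4* and *Nr4a1* after Mut.oligo (2 of 14, 0 up, beside 0.0213%), and 0 of 14 passed in the miR-124-5p comparison (beside 0%). *Fos*, *Npas4*, and *Nr4a1* encode immediate early transcription factors, and *Vgf* encodes a secreted peptide precursor induced by neurotrophins. The 0 of 14 for miR-124-5p comes from edgeR, whereas the study, which used DESeq2, lists *Fos* and *Vgf* as lower at 6 h for each miRNA. Within the 2 batches that miR-124-5p shared with untreated neurons, *Fos* was lower by -0.46 and -0.34 on the log2 scale. *Vgf* was lower there by -0.52 and -0.18.

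*Vgf* was at 101, 106, 62.9, and 80.7 CPM in untreated neurons and at 42.5, 61.0, 60.4, and 73.9 CPM at the same time with miR-92a-1-5p. The highest miR-92a-1-5p library lay above the lowest untreated one, and within batches *Vgf* was lower in 4 of 4, by 0.42 to 0.73 in size on the log2 scale. In the batch fit, the log2 fold change of *Vgf* was -0.56 (SE 0.0956), and edgeR's quasi-likelihood test gave an adjusted p (Benjamini-Hochberg) of 0.0111. The corresponding values were -0.73 (SE 0.115, adjusted p = 0.00767) for *Fos* and -0.84 (SE 0.120, adjusted p = 0.00494) for *Npas4* in the same edgeR fit. In the 8 fits that left out 1 library each, *Npas4* was called in 6, *Fos* in 4, and *Vgf* in 3. For Mut.oligo, *Npas4* had a log2 fold change of -1.04 (SE 0.152) and *Nr4a1* one of -0.72 (SE 0.0744). No Mut.oligo library was left out in the batch fit. *Nr4a1* was lower after miR-92a-1-5p too, in 4 of 4 batches. Over the 8 fits its log2 fold change ranged from -0.498 to -0.410, under the threshold of 0.5 in size. Its adjusted p in edgeR's quasi-likelihood test (Benjamini-Hochberg) ranged from 0.00213 to 0.0542.

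Among 13 proteases and inhibitors that act on neurotrophin precursors, 11 were tested at 6 h and 0 were called without a covariate. With the batch covariate, *Pcsk1*, a convertase of secretory granules, was the 1 that passed after miR-92a-1-5p, downward, and 0 passed after the other oligoribonucleotides. It was at 8.76, 8.10, 5.38, and 6.34 CPM in untreated neurons and at 4.92, 4.58, 3.37, and 5.83 CPM after miR-92a-1-5p, with 1 library of the latter inside the untreated range. Its log2 fold change was -0.61 (SE 0.130), with edgeR's adjusted p (Benjamini-Hochberg) at 0.0353, and it kept the call in 1 of the 8 fits that left out a library. Of 19 regulators of *Bdnf* transcription, *Npas4* was the only one called, after miR-92a-1-5p and after Mut.oligo, and this gene is on both lists. None of the 20 Trk adaptors or the 11 partners of p75 was called at 6 h with or without the covariate.

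**Figure D2:**
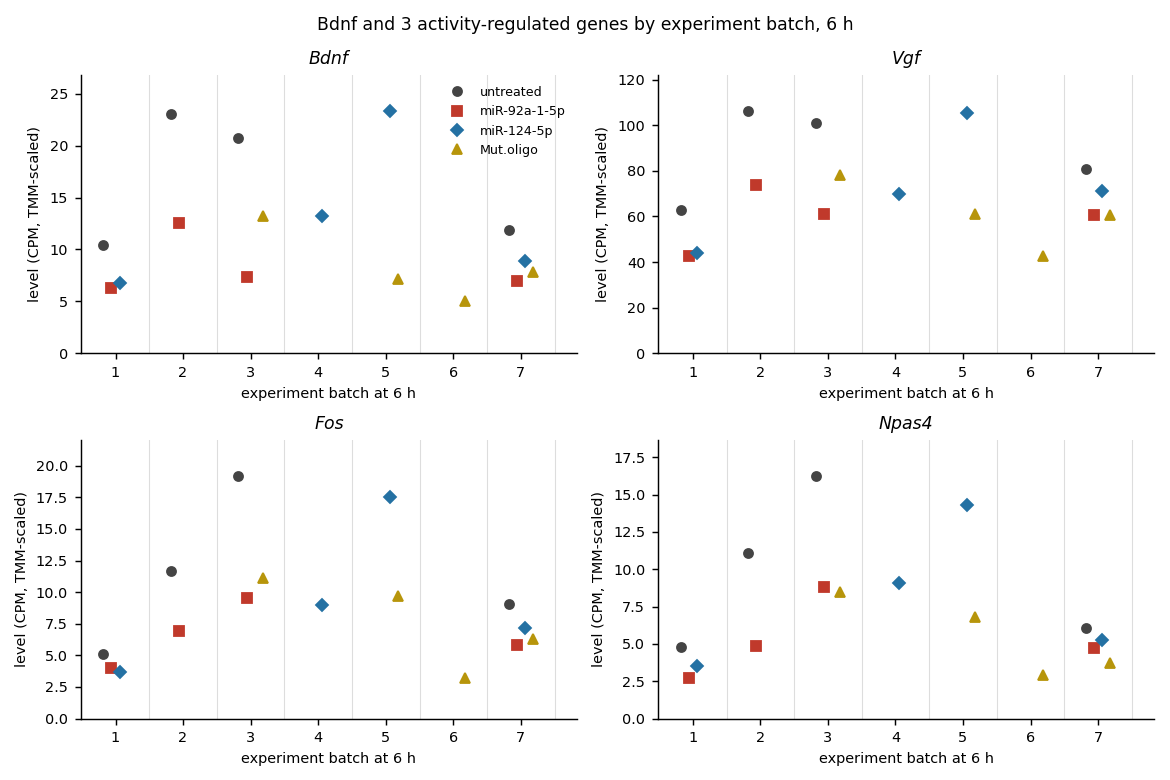
Levels of *Bdnf*, *Vgf*, *Fos*, and *Npas4* at 6 h in CPM (TMM-scaled, linear axes from 0) against the 7 experiment batches, with 1 point per library. In each of the 4 batches with both, the untreated library lies above the miR-92a-1-5p library for all 4 genes.

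Both miRNAs were also compared with Mut.oligo at the same concentration and time. For *Bdnf* at 6 h, miR-92a-1-5p differed from Mut.oligo by -0.01 on the log2 scale (SE 0.378, 95% interval -0.81 to 0.78), an interval that holds differences in both directions. With the covariate it was -0.08 (95% interval -0.63 to 0.47), and within the 2 shared batches *Bdnf* was lower with miR-92a-1-5p in both, by -0.86 and -0.17. miR-124-5p differed from Mut.oligo by 0.63 (SE 0.379, 95% interval -0.17 to 1.43), and by 0.69 with the batch covariate (SE 0.262, 95% interval 0.13 to 1.24), with an adjusted p of 0.996 from edgeR's quasi-likelihood test (Benjamini-Hochberg). Within the 2 batches shared by miR-124-5p and Mut.oligo, *Bdnf* was higher with miR-124-5p in both, by the unequal amounts of 0.18 and 1.70. No member was called in either comparison at 6 h, without or with the covariate, against 0% of all genes in each of these 4 fits.

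At 5 d, *Bdnf* was at 11.2, 10.2, 9.30, and 9.36 CPM in untreated neurons and at 6.73, 12.1, 9.76, and 10.6 CPM in those given miR-92a-1-5p. It was at 6.07, 10.4, 9.65, and 8.62 CPM after miR-124-5p and at 9.65, 9.23, 9.47, and 8.07 CPM after Mut.oligo. All 3 treated groups overlapped the untreated one, and the lowest libraries were replicate 1 of miR-92a-1-5p and replicate 1 with miR-124-5p, which share a batch without an untreated library. The log2 fold changes were -0.03 (SE 0.162), -0.20 (SE 0.162), and -0.14 (SE 0.162), respectively, all within the spread between replicates. Without miR-124-5p replicate 1, the value for that oligoribonucleotide was -0.07 (SE 0.148). In the fit with the batch covariate, *Bdnf* was at 0.08 (SE 0.0789) for miR-92a-1-5p, at -0.09 (SE 0.0794) for miR-124-5p, and at -0.16 (SE 0.0722, 95% interval -0.32 to -0.01) for Mut.oligo. Within batches it was higher with miR-92a-1-5p in 2 of 2, lower with miR-124-5p in 2 of 2, and lower with Mut.oligo in 3 of 3. The difference between miR-92a-1-5p and Mut.oligo was 0.25 (SE 0.0712) with the covariate and positive in 3 of 3 batches, with an unadjusted p of 0.00436 and an adjusted p of 0.471 (edgeR, Benjamini-Hochberg). None of these values was called. The spread itself differed between the times, with a coefficient of variation of 51.8% over the 16 libraries of 6 h and 16.2% over those of 5 d.

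The difference of the *Bdnf* effect between 5 d and 6 h was 0.95 (SE 0.423, unadjusted p = 0.0318) for miR-92a-1-5p and 0.85 (SE 0.427, unadjusted p = 0.0559) for Mut.oligo in edgeR's quasi-likelihood test over all 32 libraries. Neither passed after Benjamini-Hochberg adjustment over 20425 genes, with edgeR's adjusted p at 1.00 and 0.857. With the batch covariate, the value for miR-92a-1-5p was 1.06 (SE 0.266), with an adjusted p of 0.109 in edgeR's test (Benjamini-Hochberg). No member was called for such a difference with any oligoribonucleotide, against 0% of all genes without a covariate, and against 0.137% for miR-92a-1-5p, 0.0049% for miR-124-5p, and 0.00979% for Mut.oligo with it.

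*Ntf3* (ENSMUSG00000049107, chr6:126101412-126166910, minus strand) encodes NT-3, the ligand of TrkC. At 6 h it was at 13.3, 14.2, 10.9, and 15.98 CPM in untreated neurons and at 9.79, 13.6, 16.1, and 15.7 CPM with miR-92a-1-5p. The miR-124-5p libraries had 15.3, 10.2, 13.5, and 10.9 CPM, and those of Mut.oligo 15.8, 13.9, 9.82, and 14.97 CPM. The 4 groups covered nearly one range, and the log2 fold changes were 0.03 (SE 0.177), -0.12 (SE 0.179), and 0.02 (SE 0.180). At 5 d the untreated libraries had 5.93, 12.9, 3.30, and 8.64 CPM, and those of miR-92a-1-5p 4.83, 7.12, 10.3, and 9.18. The miR-124-5p libraries had 4.61, 6.00, 13.3, and 9.83 CPM, and those of Mut.oligo 5.56, 13.1, 11.9, and 8.60. Each group held both low and high libraries, and the groups overlapped.

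The log2 fold changes of *Ntf3* at 5 d were 0.03 (SE 0.386), 0.13 (SE 0.385), and 0.35 (SE 0.383), and without miR-124-5p replicate 1 the value of that comparison was 0.33 (SE 0.391). Libraries of a batch had like levels, since the within-batch differences to untreated at 5 d ranged from -0.09 to 0.26 over the 7 available pairs. With the batch covariate, the SE was 0.0971 to 0.108 and the log2 fold changes were 0.09, 0.14, and 0.01, with adjusted p of 0.783, 1.00, and 1.00 (edgeR's quasi-likelihood test, Benjamini-Hochberg).

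*Ntrk2* (ENSMUSG00000055254, chr13:58806569-59133970, plus strand) encodes TrkB, the receptor of BDNF. Its level at 6 h was 506, 474, 491, and 561 CPM in untreated neurons and 466, 495, 570.2, and 467 CPM with miR-92a-1-5p. It was 536, 496, 527, and 489 CPM in the miR-124-5p libraries and 548, 464, 499.8, and 497 CPM with Mut.oligo. These groups lay on top of each other, and the log2 fold changes ranged from -0.02 to 0.02, with SE of 0.0746 to 0.0747. At 5 d the untreated libraries had 944, 788, 1009.8, and 823 CPM, and those of miR-92a-1-5p 1039.6, 924, 772, and 756. The miR-124-5p libraries had 789, 954, 839.8, and 841 CPM, and those of Mut.oligo 948, 818, 687, and 766. Again all groups overlapped. The log2 fold changes were -0.03, -0.05, and -0.14 with an SE of 0.116 each, so that the 95% interval of the difference was -0.27 to 0.21 for miR-92a-1-5p and -0.39 to 0.10 for Mut.oligo.

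*Ntrk3* (ENSMUSG00000059146, chr7:78175959-78738012, minus strand) encodes TrkC. At 6 h, untreated neurons had 299, 203, 231, and 212 CPM, and neurons exposed to miR-92a-1-5p had 223, 334, 284, and 247 CPM. With miR-124-5p, the level was 227, 291, 287, and 264 CPM, and with Mut.oligo 270.1, 271, 325, and 305 CPM. Of the untreated libraries, 3 were below every Mut.oligo library and the remaining one, replicate 1, lay among them. The log2 fold change was 0.33 (SE 0.130) for Mut.oligo, where edgeR's quasi-likelihood test gave an unadjusted p of 0.0207 and an adjusted p (Benjamini-Hochberg) of 0.458. Without Mut.oligo replicate 4 it was 0.31 (SE 0.142), with an unadjusted p of 0.0471 in edgeR's quasi-likelihood test. It was 0.21 (SE 0.130) for miR-92a-1-5p and 0.19 (SE 0.130) for miR-124-5p. In the fit with the batch covariate the 3 values were 0.19, 0.21, and 0.19, and edgeR's adjusted p (Benjamini-Hochberg) was 0.533, 0.179, and 0.824. Within batches, *Ntrk3* had the higher level with miR-92a-1-5p in 3 of 4 cases, and with Mut.oligo and miR-124-5p in 2 of 2 each. Its 3 seed complements stand beside a fold change that was positive and not called.

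At 5 d, *Ntrk3* was at 268, 299, 202, and 363 CPM in untreated neurons and at 268, 321, 267, and 260.2 CPM after miR-92a-1-5p. It was at 146, 377, 355, and 393 CPM with miR-124-5p and at 370.0, 345, 212, and 228 CPM with Mut.oligo. The lowest value belongs to the library that stood apart, and the 3 remaining miR-124-5p libraries lay in the upper part of the untreated range or above it. The log2 fold changes were -0.02, 0.17, and 0.03 with an SE of 0.252 each, and leaving out miR-124-5p replicate 1 gave 0.40 (SE 0.190, unadjusted p = 0.0493 in edgeR's quasi-likelihood test) for that oligoribonucleotide.

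*Ngfr* (ENSMUSG00000000120, chr11:95568818-95587735, minus strand) encodes the p75 receptor. Untreated neurons had 6.02, 4.42, 7.13, and 5.84 CPM at 6 h, and those with miR-92a-1-5p had 5.48, 5.51, 5.88, and 4.91 CPM. The values were 6.31, 5.97, 5.82, and 5.72 CPM in the miR-124-5p libraries and 4.42, 5.35, 7.39, and 4.92 CPM with Mut.oligo. The miRNA groups lay within the untreated range and the Mut.oligo libraries reached slightly past it, and the log2 fold changes ranged from -0.10 to 0.03 with SE of 0.149 to 0.151. At 5 d, untreated neurons had 3.00, 2.89, 3.01, and 2.57 CPM. With miR-92a-1-5p they had 1.69, 2.41, 2.44, and 2.57 CPM, with miR-124-5p 2.05, 1.82, 2.43, and 2.00, and with Mut.oligo 2.08, 2.25, 2.60, and 2.86. Every miR-124-5p library was below every untreated library, and so were the miR-92a-1-5p libraries, although the highest of these and the lowest untreated one both came to 2.57 CPM. The values rest on 65 to 180 counts per library.

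*Ngfr* was thus the 1 member of 6 whose libraries all lay below the untreated ones for miR-92a-1-5p, beside 1.61% of all genes, and likewise for miR-124-5p, beside 0.998%. For Mut.oligo 0 of 6 members did, beside 1.29% of all genes. The log2 fold change of *Ngfr* was -0.46 (SE 0.152, unadjusted p = 0.00745) for miR-124-5p, -0.33 (SE 0.152, unadjusted p = 0.0447) for miR-92a-1-5p, and -0.22 (SE 0.150, unadjusted p = 0.156) for Mut.oligo in edgeR's quasi-likelihood test. Adjusted over 19333 genes (Benjamini-Hochberg), edgeR's p was 1.00, 1.00, and 0.999. In the fits that left out 1 library each, the value for miR-124-5p ranged from -0.54 to -0.41. Within batches, *Ngfr* was lower after miR-124-5p in 2 of 2, by -0.72 and -0.36, lower after miR-92a-1-5p in 2 of 2, by -0.32 and -7.63e-05, and lower after Mut.oligo in 2 of 3. miR-124-5p differed from Mut.oligo by -0.24 (SE 0.153, 95% interval -0.56 to 0.08). The difference of miR-92a-1-5p from Mut.oligo was -0.11 (SE 0.153, 95% interval -0.43 to 0.22), and -0.07 (SE 0.144) with the batch covariate.

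The seed complement of *Ngfr* thus stands beside a lower level after miR-92a-1-5p that did not pass. Against Mut.oligo, miR-92a-1-5p had a 95% interval that held differences in both directions. The means were 2.87 ± 0.206 CPM in untreated neurons, 2.27 ± 0.397 with miR-92a-1-5p, and 2.07 ± 0.257 in the miR-124-5p libraries (SD, n = 4 each). At 5 d the summed markers of the oligodendrocyte lineage were also lower on average after each oligoribonucleotide. With the batch covariate, 4, 2, and 1 of them were called lower and 0 higher, beside 0.352%, 0.0259%, and 0.0466% of all genes called in either direction. The sum of these 7 genes ranged from 169 to 203 CPM in untreated neurons, from 88.2 to 165 after miR-92a-1-5p, from 115 to 182 after miR-124-5p, and from 125 to 142 after Mut.oligo, with none of the 7 at 0 in any library. Proliferating progenitor markers summed to 178 to 214 CPM in untreated neurons and to 114 to 189, 131 to 189, and 133 to 163 CPM with the 3 oligoribonucleotides. The 5 endothelial markers summed to 5.62 to 10.98 CPM in untreated neurons, 3.36 to 4.67 with miR-92a-1-5p, 4.35 to 6.14 in the miR-124-5p libraries, and 3.38 to 5.24 with Mut.oligo, so that the first and the last of these lay apart from untreated, and *Cldn5* or *Tek* was at 0 in single libraries. Mural and fibroblast markers summed to 43.9 to 79.6 CPM in untreated neurons and to 33.1 to 52.5, 32.7 to 63.6, and 38.4 to 58.0 CPM. The mean sum of the neuron markers was 4458 CPM in untreated neurons and 4574, 4497, and 4676 CPM with the 3 oligoribonucleotides. For astrocyte markers it was 2066 CPM in untreated neurons and 1877, 1927, and 1730 CPM in the same order. For microglia markers it was 6.88 CPM and then 6.36, 7.20, and 5.86 CPM, and the ranges of these last 3 lists overlapped untreated. The part of these cell types in the level of *Ngfr* was not tested.

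*Sort1* (ENSMUSG00000068747, chr3:108284082-108361511, plus strand) encodes sortilin, the co-receptor of p75, and was the steadiest member at 6 h. It was then at 228, 221, 226, and 216 CPM in untreated neurons and at 214, 228, 214, and 218 CPM with miR-92a-1-5p. In the miR-124-5p libraries it was at 205, 222, 233, and 227 CPM, and with Mut.oligo at 205, 222, 217, and 211 CPM. The groups overlapped within a narrow band, and the log2 fold changes were -0.03 (SE 0.0396), 0.00 (SE 0.0397), and -0.04 (SE 0.0397). The 95% interval of the difference was -0.11 to 0.06 for miR-92a-1-5p, whose seed complement occurs 1 time in this transcript. At 5 d, untreated neurons had 233, 254, 201, and 241 CPM, and those exposed to miR-92a-1-5p had 227, 252, 234, and 236. With miR-124-5p the level was 171, 248, 246, and 248 CPM, and with Mut.oligo 239, 257, 207, and 223 CPM. The lowest library was again miR-124-5p replicate 1, far below its 3 group members. The log2 fold changes were 0.03, -0.02, and -0.00 with an SE of 0.108 each, and the value for miR-124-5p was 0.09 (SE 0.0801) without that library.

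At 5 d, 0 of the 6 members were called for any oligoribonucleotide, against 0.00517% of all genes in the miR-92a-1-5p comparison and 0% in both others, without a covariate. With the batch covariate there were 0 of 6 too, against 0.352%, 0.0259%, and 0.0466% of all genes. These shares are those of edgeR, and the study, with DESeq2, reports deregulated genes at 5 d for each oligoribonucleotide. At an unadjusted p under 0.05 without a covariate, *Ngfr* was the 1 member to pass for miR-92a-1-5p, beside 3.63% of all genes, and again the 1 for miR-124-5p, beside 2.6%, while 0 passed for Mut.oligo, beside 2.79%. Against Mut.oligo, 0 members were called for either miRNA at 5 d, with 0% of all genes called without a covariate and, with it, 0.0103% for miR-92a-1-5p but 0% for miR-124-5p. Of these 5 pathway lists, 0 genes were called at 5 d in any comparison to untreated, with or without the covariate. The BDNF response list had medians of -0.05, -0.06, and -0.22 there, beside -0.0013, 0.0027, and 0.0031 over all genes.

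**Figure D3:**
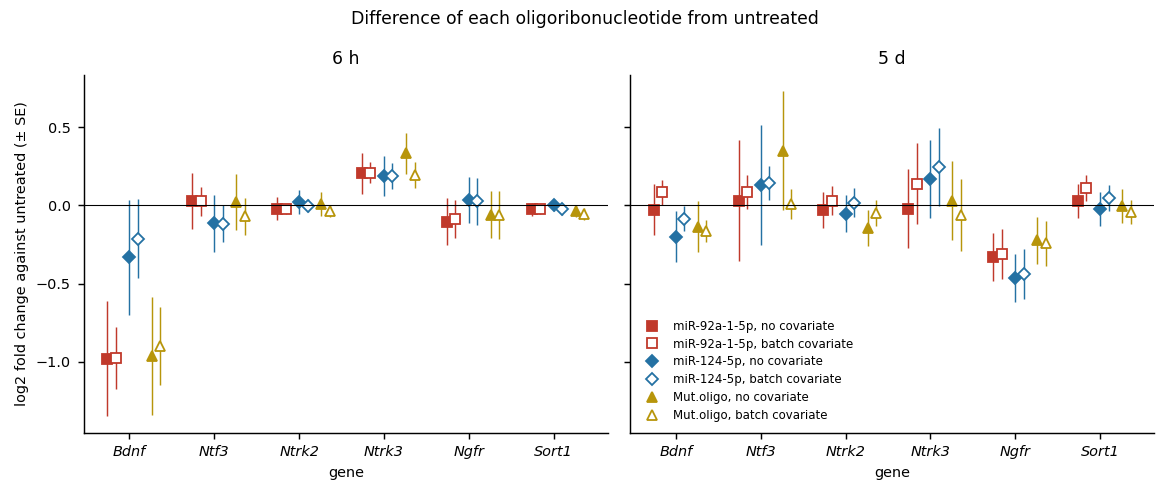
Log2 fold change of each gene against untreated (points, with bars of 1 SE) at 6 h and 5 d for the 3 oligoribonucleotides, without a covariate (filled) and with the experiment batch as covariate (open). At 6 h *Bdnf* lies near -1 for Mut.oligo and miR-92a-1-5p, and the values of the other 5 genes lie between -0.12 and 0.33.

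Between the time points, 4 of the 6 members were called in untreated neurons. In untreated neurons, *Ntrk2* rose from 508 ± 37.7 CPM at 6 h to 891 ± 103 CPM at 5 d, and *Ngfr* fell from 5.85 ± 1.11 to 2.87 ± 0.206 CPM (SD, n = 4 each). For both genes the 4 libraries of 5 d lay apart from those of 6 h. *Ntf3* fell from 13.6 ± 2.12 to 7.70 ± 4.11 CPM and *Bdnf* from 16.5 ± 6.32 to 10.02 ± 0.908 CPM (SD, n = 4 each), with overlapping libraries. The log2 fold changes and adjusted p were 0.81 (SE 0.101, 6.59e-08) for *Ntrk2*, -1.03 (SE 0.150, 1.02e-06) for *Ngfr*, -0.83 (SE 0.316, 0.0279) for *Ntf3*, and -0.72 (SE 0.298, 0.0415) for *Bdnf* (edgeR's quasi-likelihood test, Benjamini-Hochberg). *Ntrk3* and *Sort1* did not pass, with log2 fold changes of 0.26 (SE 0.213) and 0.06 (SE 0.0846). Thus 1 member was called higher and 3 lower, against 19.1% of all genes higher and 14.3% lower. Each experiment batch holds libraries of 1 time point, so that time in culture and batch cannot be told apart.

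When each of the 8 untreated libraries was left out in turn, *Ntrk2* and *Ngfr* were called in 8 of 8 fits, *Ntf3* in 3, and *Bdnf* in 2. The adjusted p of *Bdnf* (edgeR, Benjamini-Hochberg) reached 0.176 without untreated replicate 2 of 6 h, and that of *Ntf3* reached 0.118 without untreated replicate 3 of 5 d. The call of *Bdnf* was lost without any 1 of the 5 d libraries and without replicates 1 or 2 of 6 h, and that of *Ntf3* without replicates 1 or 3 of 5 d and replicates 1, 2, or 4 of 6 h. The same contrast was then made within each oligoribonucleotide, a comparison chosen after values were seen. *Ntrk2* rose in all 3, by 0.81 on the log2 scale with miR-92a-1-5p, 0.74 in the miR-124-5p libraries, and 0.68 with Mut.oligo. *Ngfr* fell in all 3, with log2 fold changes of -1.25, -1.52, and -1.17 in the same order. *Ntf3* fell by 0.82 with miR-92a-1-5p and had values of -0.57 and -0.48 with the others. *Bdnf* was called in none of them, with values of 0.23, -0.58, and 0.13. The members called were 1 higher and 2 lower of 6 for miR-92a-1-5p (18.3% and 15.7% of all genes), 1 and 1 for miR-124-5p (19.5% and 14.7%), and 1 and 1 for Mut.oligo (18.7% and 15.4%).

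The rest of the pathway held called genes in both directions between untreated 6 h and 5 d, where 19.1% of all genes were called higher and 14.3% lower. Of 12 tested processing genes 4 rose and 1 fell, and of 20 Trk adaptors 1 rose and 1 fell. Of 11 partners of p75, 1 rose and 1 fell, of 19 regulators of *Bdnf* transcription 3 rose and 3 fell, and of 14 BDNF response genes 6 rose and 1 fell. The medians of the 5 lists were -0.01, -0.17, -0.15, -0.07, and 0.24, beside 0.04 over all genes. The following genes are named after their values were seen. *Sorcs1* and *Sorcs2*, which encode relatives of sortilin, rose by 0.85 (SE 0.119) and 0.52 (SE 0.0936) on the log2 scale. *Pcsk2* and *Cpe*, which encode enzymes that process neuropeptides in granules, rose by 1.01 (SE 0.105) and 1.17 (SE 0.0997). *Vgf* fell by 1.28 (SE 0.195), while *Egr1* and *Arc*, activity-regulated genes of the same list, rose by 2.66 (SE 0.320) and 1.79 (SE 0.353).

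Astrocyte markers moved with time as well. All 6 genes of that list rose in untreated neurons (median log2 fold change 2.31), and their summed level went from between 381 and 627 CPM at 6 h to between 1553 and 2548 CPM at 5 d, with none at 0. *Ntrk2* is known to be made by astrocytes as well as neurons. The summed neuron markers were between 4537 and 5099 CPM at 6 h and between 3731 and 5208 CPM at 5 d. Markers of proliferating progenitors summed to between 290.2 and 405 CPM at 6 h and to between 178 and 214 CPM at 5 d, so that the times lay apart, and 4 of the 6 were called lower and 0 higher. Of 7 markers of the oligodendrocyte lineage, *Pdgfra* and *Sox10* were called lower, while the sum ranged from 153 to 283 CPM at 6 h and from 169 to 203 CPM at 5 d. The part of these cell types in the changes of *Ntrk2*, *Ngfr*, *Ntf3*, and *Bdnf* over time was not tested.

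Levels of the members were also compared with each other across the 16 libraries of a time point, in 30 relations. *Ntrk3* and *Sort1* went together at 5 d, with Pearson r of 0.91 (adjusted permutation p = 0.0003) and Spearman rho of 0.78 (adjusted permutation p = 0.0162), Benjamini-Hochberg adjusted over the 30. Without the 2 libraries farthest from the median of *Ntrk3* r was 0.80, and after subtraction of batch means it was 0.86 (15 libraries, adjusted permutation p = 0.0488). *Ntf3* and *Ntrk2* had an r of -0.71 at 5 d (adjusted permutation p = 0.0378), but rho was -0.59 (adjusted permutation p = 0.259) and within batches r was 0.21, so that this relation did not hold there. The other 28 relations did not pass on r, among them that of *Bdnf* and *Ntrk2*, with r of -0.08 at 6 h and 0.03 at 5 d. Within batches, 2 further pairs passed at 5 d, *Ntrk3* with *Ngfr* (r = -0.73, adjusted permutation p = 0.0042) and *Ntrk2* with *Ntrk3* (r = 0.88, adjusted permutation p = 0.0488).

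*Ntrk3* and *Sort1* also moved with a property of the whole library. Genes that span at least 100000 bases, 2448 of the 17906 compared, were shifted together in some libraries, and this shift is taken as the difference of their median log2 deviation from that of the other genes. *Ntrk3* spans 562054 bases and *Sort1* 77430, where the median gene spans 20772. Across the 16 libraries of 5 d, the Pearson correlation of the level with the shift was 0.91 for *Ntrk3* and 0.96 for *Sort1*, and 0.84 and 0.88 without the 2 extreme libraries. At 6 h it was 0.76 for *Ntrk3*, or 0.63 without the 2 extreme libraries, and 0.14 for *Sort1*. Span did not sort the members by this correlation. *Ntrk2*, which spans 327402 bases, had 0.37 at 6 h and 0.30 at 5 d, or -0.11 at 5 d without the 2 extreme libraries. For *Bdnf*, *Ntf3*, and *Ngfr* it was 0.51, 0.40, and -0.17 at 5 d, or 0.04, 0.58, and -0.60 without the 2 extreme libraries. The libraries share their depth scaling between the axes, and these values are given as a description. The shift was -0.254 in miR-124-5p replicate 1 at 5 d and lay between -0.131 and 0.0960 in the remaining libraries. Its part in the levels of *Ntrk3* and *Sort1* was not tested.

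**Figure D4:**
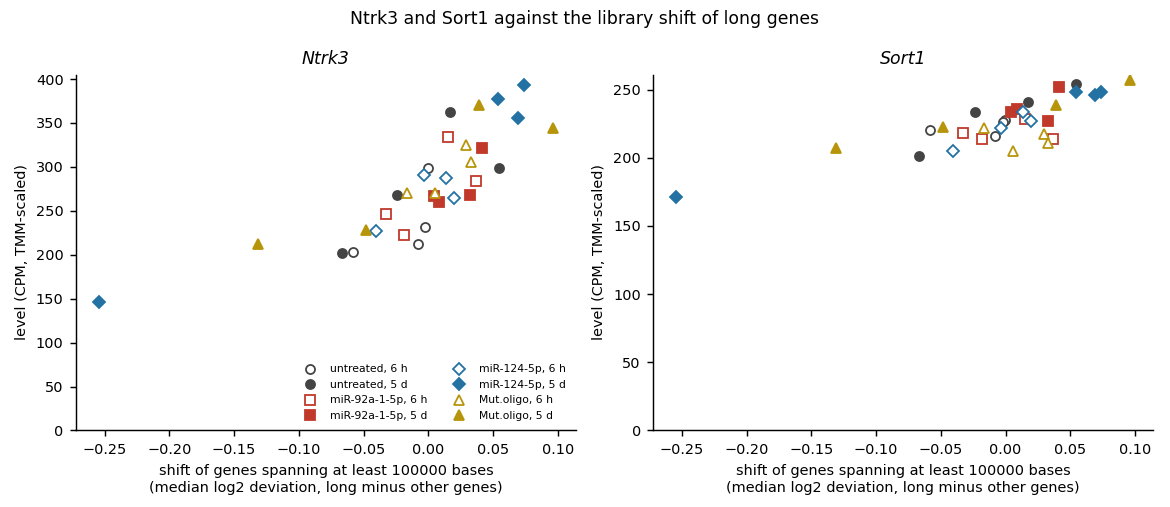
Levels of *Ntrk3* and *Sort1* in CPM (linear axes from 0) against the shift of long genes (median log2 deviation of genes spanning at least 100000 bases minus that of the other genes), with 1 point per library, open at 6 h and filled at 5 d. The point farthest to the left is miR-124-5p replicate 1 at 5 d, which holds the lowest level of both genes.

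For each member, the genes with the most similar pattern were sought over all 32 libraries, by Pearson r of log2 CPM after subtraction of the time means. For *Bdnf* these were *Plppr4* (r = 0.90), *Kcnj3* (0.88), and *Vgf* (0.87), and 14 of 17906 genes had an r above 0.8. The likeness of *Vgf* and *Bdnf* was carried by the libraries of 6 h, with r of 0.94 there and 0.33 at 5 d. *Npas4*, *Fos*, and *Nr4a1*, picked by name, had 0.84, 0.82, and 0.78 at 6 h but -0.15, -0.06, and -0.30 at 5 d. Over all 32 libraries these genes ranked 182, 408, and 215 among the genes most similar to *Bdnf*. *Ntf3* was nearest to *Sertm1*, *Trak1*, and *Tgm3* (0.93, 0.92, and 0.92), and *Ntrk2* to *Phlpp1*, *Sesn3*, and *Cdh6* (0.84, 0.84, and 0.81). *Ntrk3* was nearest to *B230334C09Rik*, *Usp34*, and *Tanc2* (0.95 each), the first of which has the annotated type antisense, and *Sort1* to *Nav3*, *Dock4*, and *Man1a2* (0.93, 0.93, and 0.92), with 318 and 323 genes above 0.8. *Ngfr* had no gene above 0.8, and the nearest were *Ist1*, *AC122898.1*, and *Gm37035* (0.65, 0.62, and 0.62).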

How the data were processed

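Neurons were cultured in Neurobasal medium with B27, and stranded poly(A) libraries were read from 1 end. Per the labels and the methods of the study, the authors mapped reads with STAR (2.7.3a) to GRCm38 and deposited raw counts per gene from featureCounts (Subread 2.0.0), summed over exons with regard to strand. Columns were matched to samples through their titles. Exons of *Bdnf* and *Sort1* overlap those of *Gm45346* and *Gm12523* on the opposite strand. The label "biol rep" does not say whether libraries came from separate cultures, and otherwise p-values measure only the spread between these libraries. The members and gene lists were chosen with earlier results of these data known, and so were the tests.

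From the deposited counts, edgeR 4.0.16 (R 4.3.3) fitted quasi-likelihood models with TMM scaling and no covariate to genes that reached 5 counts in 3 or more libraries, over the 4 groups of a time point for comparisons of treatments and over all 8 groups for comparisons of times. A gene was called where its adjusted p (Benjamini-Hochberg) was under 0.05 and its log2 fold change exceeded 0.5 in size. Intervals of 95% used the total degrees of freedom of edgeR's test, which add prior to residual ones. The code was tested on simulated counts. Alternatives were the experiment batch as covariate, a replicate block, DESeq2 1.42.0, other size factors, other filters, fits of the compared groups alone, and omission of each library. Leaving out libraries in the fit with the batch covariate, and the times within each oligoribonucleotide, were added after values were seen. Permutation tests of correlations were two-sided with 100000 resamples. The genes named were the members, the called genes of the lists, the 3 genes most similar to each member, and others where the text says so. Between replicates, the chi-square per degree of freedom of the counts was 7.10 to 109.9, above sampling noise. Sequences came from RefSeq (GRCm38.p6). miR-124-5p and the promoters of *Ntrk3* and *Sort1* are named only. A comparison of replicate numbers is given among the limits of the results. Some genes of the family are not reported here.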

Additional observations from a re-analysis of the deposited data

Results flagged for a closer look

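Dixon's criterion was applied to each of the 6 members in each of the 8 groups, as 48 sets of 4 values. In 4 of the 48 sets, 1 library lay far from the others, where chance flags about 1 in 20 sets. Sets of different genes share their libraries, so that they are not separate trials. *Bdnf* after 6 h of miR-92a-1-5p was at 12.6 CPM in replicate 4, while the 3 other libraries had 6.32 to 7.31 CPM. This library had the deepest *Bdnf* count, 940, and its batch partner was the untreated library with the highest level, at 23.1 CPM. *Ntrk3* after 5 d of miR-92a-1-5p was at 321 CPM in replicate 2, above 260.2 to 268 CPM in the others.

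Both remaining cases were in replicate 1 of miR-124-5p at 5 d. *Ntrk3* was at 146 CPM there and at 355 to 393 CPM in the 3 others, and *Sort1* was at 171 CPM and at 246 to 248 CPM. The shift of long genes in this library was -0.254. Its part in these levels was not tested.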

How the results depend on the processing

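Of 293 counts recomputed under alternatives, of called members apart from that of correlated pairs, 281 stayed within 1.5 times of the reported one. Without a covariate the count was 0 in every comparison of treatments, where few or no genes were called at all. A count that stayed at 0 was taken as unchanged, so that the 281 say little about these comparisons. For miR-92a-1-5p at 6 h, the count went from 0 to 1 (*Bdnf*) with the experiment batch as covariate, and in that fit it ranged from 0 to 1 as single libraries were left out, with 0 in 7 of 8. For untreated neurons at 5 d against 6 h, it ranged from 2 to 4, with 2 without replicates 1 or 2 of 6 h or replicates 1 or 3 of 5 d. Of 1704 log2 fold changes of members, 157 changed sign, all of results whose unadjusted edgeR p was at least 0.342, and 0 called values reversed. Only with both time groups fitted alone did *Ntf3* lose its call over time among the other settings (edgeR, Benjamini-Hochberg adjusted p = 0.0506).

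Replicate numbers did not pair the libraries at 6 h, where 6 of 24 same-numbered pairs had a correlation of deviations over 0.1. Of pairs that shared neither number nor batch, 13 of 60 did. At 5 d it was 13 of 24 same-numbered pairs, beside 16 of 68 that shared neither. Many same-numbered libraries of 5 d also share an experiment batch, so that number and batch cannot be told apart there. With a replicate block, 4 members were called over time in untreated neurons and 0 in each comparison of treatments. *Ngfr*, with 65 to 367 counts per library, is the member most limited by depth.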
